A study of Sus scrofa with 24 samples.

Results

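Subcutaneous and intramuscular preadipocytes of the pig were compared on day 4 of adipogenic culture, in 3 IMF-4d libraries against 3 BF-4d libraries, 6 of the 24 libraries of the series. Preadipocytes are fibroblast-like precursors that can be driven to store lipid. BF stands for cells from the fat under the skin of the back and IMF for cells from the fat within a back muscle, the longissimus dorsi, both from Yorkshire piglets aged 6 days. The libraries were chosen by their labels and column names alone, and the other 18 libraries (the same depots on days 0, 2 and 8, 3 in each group) were used for the shared estimate of spread and to place day 4 in the time course. Both groups had been grown close to confluence, kept for 2 days in medium with IBMX (an inhibitor of the enzymes that degrade cAMP), dexamethasone (a synthetic glucocorticoid) and insulin, and then for 2 days in medium with insulin, so that day 4 closed the insulin phase and neither group was untreated. These were primary cells grown in serum, and the labels do not say which of the 3 piglets each replicate came from, so p-values measure only the spread between these samples, which may be technical.

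Fat cell formation in culture starts with confluent, matrix-producing fibroblasts. The hormone mixture induces CEBPB and CEBPD, which in turn activate PPARG and CEBPA, the regulators that switch on genes for lipid droplets, fatty acid uptake and hormone secretion. As cells commit, they normally round up and take down actin stress fibres and fibrillar collagen, whereas cells that turn into myofibroblasts build up smooth muscle actin, contractile proteins and fibrillar matrix. Precursors also secrete cytokines, prostaglandins and growth factors that act on these choices.

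RNA levels were given in FPKM, a fragment count divided by transcript length and by library size, so levels of different genes can be set side by side per length. Differences are IMF-4d minus BF-4d on the log2(FPKM + 1) scale, where 1 is a doubling for a well expressed gene and the change of a low gene is understated. A gene was called when its Benjamini-Hochberg adjusted p from limma was under 0.01 and its difference at least 1 in size. Levels by library are given in the order of replicates 1, 2 and 3. In bulk RNA, fewer cells of a type and less RNA per cell cannot be told apart.

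The markers of the labelled cell type were checked first. Of 17 stromal progenitor markers 16 were in the table, and their summed level was 1460 to 1680 FPKM in BF-4d and 2030 to 2140 FPKM in IMF-4d. Adipocyte genes did not stand at one level: 9 of the 32 in the table were under 1 FPKM in every day 4 library, while the sum over the list was 728 to 864 FPKM in BF-4d and 173 to 198 FPKM in IMF-4d. ADIPOQ (adiponectin) read 0.230, 0.0832 and 0.0197 FPKM in BF-4d and was listed at 0 in all 3 IMF-4d libraries. PLIN1, the droplet coat of mature adipocytes, was above 0 in 1 BF-4d library only (0.0773 FPKM), and LEP (leptin) was listed at 0 in all 6. LPL, PLIN2, CFD and PCK1 of the same list, described below, were higher in BF-4d. Muscle precursor markers were low: 15 of 16 stayed under 1 FPKM in every library, MYOD1 and MYF5 were listed at 0, and the summed level was 0.324 to 0.449 FPKM in BF-4d and 1.12 to 1.67 FPKM in IMF-4d. Of the 2 that could be tested 1 was called, ITGA7, an integrin of muscle, which read 0.0411, 0.0489 and 0.0259 FPKM in BF-4d and 0.926, 1.32 and 1.33 FPKM in IMF-4d and was higher in IMF-4d (1.07, SE 0.10, adjusted p = 8.51e-08) as it was on day 0 (1.69), a day 4 call lost after both other scalings. Endothelial markers summed to 11.5 to 18.2 FPKM in BF-4d and 19.2 to 20.8 FPKM in IMF-4d. Immune markers summed to 83.3 to 107 FPKM and 62.7 to 74.7 FPKM, mostly through CD79A, while PTPRC, which marks all leukocytes, was listed at 0. Of the 16 endothelial, immune, glial and mesothelial markers tested with limma, 0 were called, while 6 had an unadjusted p under 0.05 2 (endothelial) were called with library weights and 3 (2 endothelial and 1 immune) with pseudocount 0.1. Among these PECAM1, which marks endothelium, differed by 0.90.

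One subcutaneous library stood apart. Across genes, BF-4d replicate 3 correlated at 0.9654 and 0.9699 with replicates 1 and 2, which correlated at 0.9908 with each other, and the 3 IMF-4d libraries correlated at 0.9935 to 0.9944. Over the 4551 genes with a mean of at least 10 FPKM on day 4, the median SD of log2 values was 0.191 in BF-4d and 0.0811 in IMF-4d. Summed FPKM over all genes was 338789.5 to 351974.3 in the 6 libraries, which does not give the sequencing depth. Counts were recomputed without each library, and values without BF-4d replicate 3 are given for some of the lists and genes.

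On day 4 the intramuscular cells held far more RNA for smooth muscle contractile proteins, fibrillar matrix, small proteoglycans, interferon-stimulated genes and cholesterol synthesis, and far less for inflammatory cytokines, prostaglandin synthesis, EGF family ligands and feedback inhibitors, and glycolysis, as well as for LPL and PLIN2 among the genes of lipid storage. Of 16135 genes tested, 1826 were called (11.3%), 1065 higher in IMF-4d (6.6%) and 761 lower (4.72%). These shares are the background for the counts of each gene list below. The share of calls that were higher, 58.3%, depended on the scaling: it was 48.2% after median ratio scaling and 50.5% after quantile normalization. The median difference over all tested genes was 0.0694. At a size of at least 2 there were 459 called genes, 213 of them higher and 246 lower, and at a size of at least 4 there were 66, with 27 higher and 39 lower. The 3 libraries of each depot did not overlap in 1825 of the 1826 called genes, against 54.6% of all genes tested. Absence of overlap in a called gene named below therefore adds little to its call. When only the 6 day 4 libraries were fitted, 1557 genes were called (9.65%), 1531 of them shared (9.49% of all tested). Without BF-4d replicate 3 the count was 1686, of which 1518 were shared, and 1360 genes were called whichever of the 6 was removed.

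**Figure D1:**
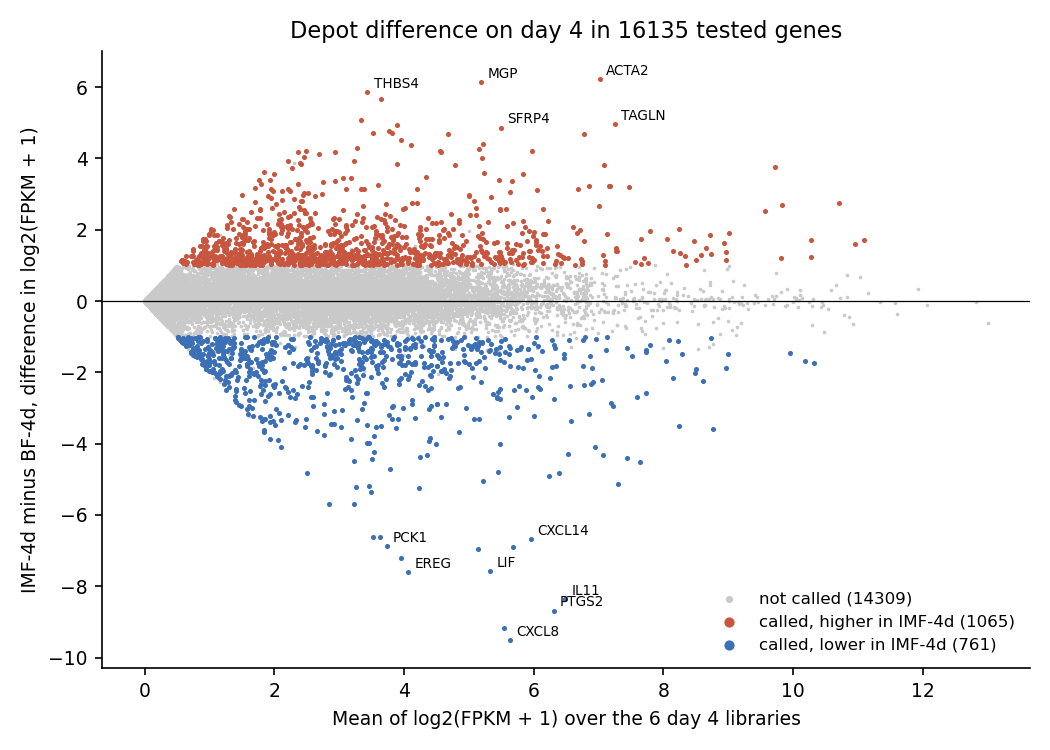
Difference between depots on day 4 for each of 16135 tested genes (y axis, log2(FPKM + 1), IMF-4d minus BF-4d) against the mean log2(FPKM + 1) of the 6 libraries (x axis), with 1065 called genes higher in IMF-4d and 761 lower marked by colour. Labelled genes reach 6.24 (ACTA2) above and -9.50 (CXCL8) below the line of no difference.

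The largest difference upwards was that of ACTA2 (smooth muscle alpha-actin, the defining filament of myofibroblasts; chromosome 14, 100868145 to 100886732). Its level was 16.2, 22.1 and 7.38 FPKM in BF-4d and 1104, 1129 and 1143 FPKM in IMF-4d. The groups were far apart, and the lowest IMF-4d library lay above the highest BF-4d library by a wide margin. The difference was 6.24 (SE 0.55, adjusted p = 4.06e-08), and 5.82 without BF-4d replicate 3. MGP, a secreted protein that holds back mineral deposition in cartilage and vessel walls, read 2.60, 7.42 and 1.73 FPKM in BF-4d and 297, 314 and 305 FPKM in IMF-4d, a difference of 6.13 (SE 0.56, adjusted p = 7.36e-08). THBS4 (thrombospondin 4, a matrix protein of tendon and muscle; chromosome 2, 88729531 to 88780759) read 0.383, 0.625 and 0.268 FPKM in BF-4d and 78.3, 84.9 and 81.7 FPKM in IMF-4d. Every BF-4d library was under 1 FPKM and the IMF-4d libraries lay within a few FPKM of each other, and its adjusted p was the smallest among the genes named here (5.86, SE 0.11, adjusted p = 1.13e-18). THBS4 was also higher in IMF on day 0 by 4.08, whereas ACTA2 and MGP were not called on that day (0.23 and 0.56).

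In the other direction the largest difference among genes with a symbol was that of CXCL8 (interleukin 8, a chemokine that draws neutrophils; chromosome 8, 69932646 to 69935861). It read 543, 527 and 8229 FPKM in BF-4d and 0.893, 0.434 and 1.29 FPKM in IMF-4d. Replicate 3 alone carried the highest subcutaneous level, but replicates 1 and 2 were also far above every IMF-4d library. The difference was -9.50 (SE 0.77, adjusted p = 2.01e-08) and -8.19 without replicate 3. PTGS2 (cyclooxygenase 2, the inducible enzyme of prostaglandin synthesis) read 753, 1146 and 4825 FPKM in BF-4d and 3.17, 2.46 and 3.16 FPKM in IMF-4d, a difference of -8.68 (SE 0.65, adjusted p = 6.17e-09). IL11, an interleukin of the IL6 family, read 812, 1422 and 3749 FPKM in BF-4d and 4.42, 3.28 and 4.18 FPKM in IMF-4d. For both genes replicate 3 was again the highest subcutaneous library and the groups did not overlap. PCK1 (phosphoenolpyruvate carboxykinase 1, which makes the glycerol backbone of triglycerides in fat cells) went the other way within the group. It read 245, 217 and 54.7 FPKM in BF-4d and 0.344, 0.136 and 0.229 FPKM in IMF-4d, lowest in replicate 3, with a difference of -6.87 (SE 0.78, adjusted p = 1.17e-06) and of -7.55 without that library. An unnamed transcript assembled by the authors ranked second in this direction by size, and 126 of the 2715 tested transcripts of that kind were called.

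**Figure D2:**
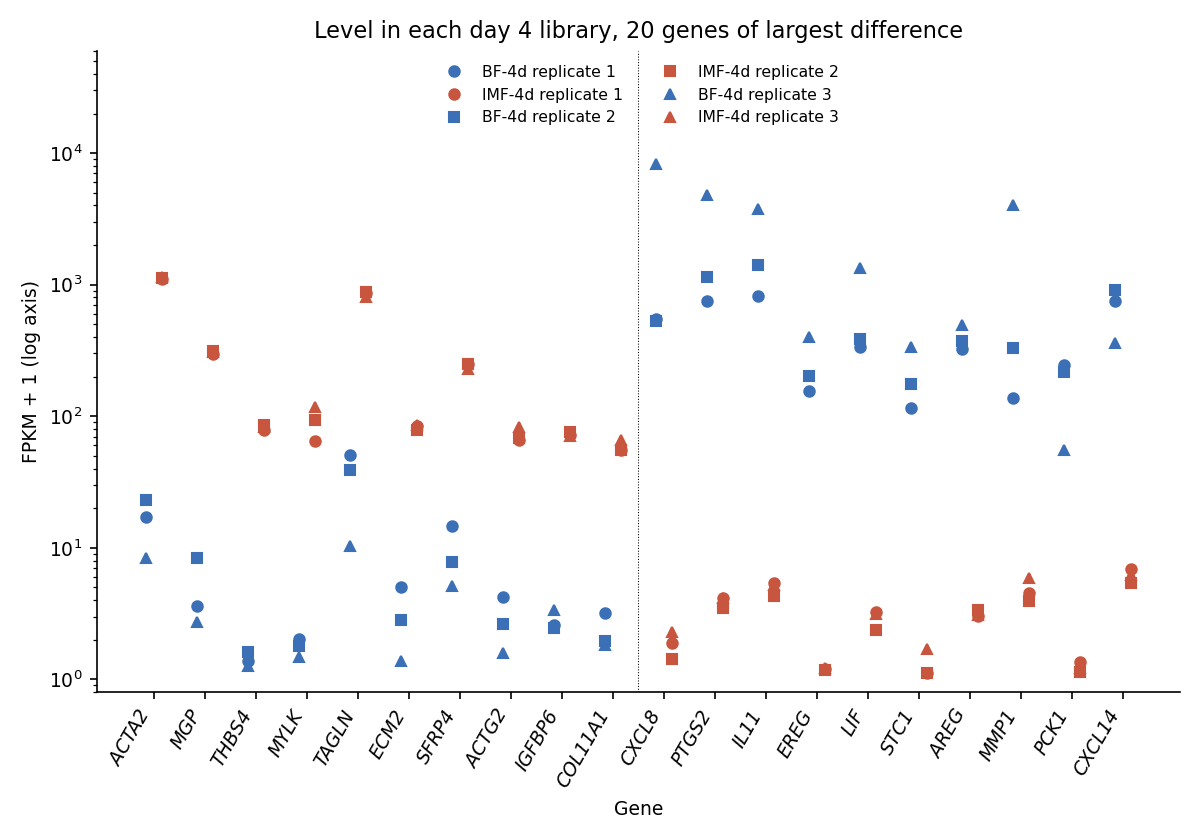
FPKM (log axis) in each day 4 library of 20 genes, as points by depot: the 10 largest differences in each direction among genes with a symbol, called in both fits, with at least 10 FPKM and, by that choice, no overlap between depots. BF-4d replicate 3 is marked apart and holds the most CXCL8, 8229 FPKM.

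Most tested contractile and actin cytoskeleton genes were higher in IMF-4d. Of 34 listed, 31 were in the table and 28 tested. Of those, 18 were higher (64.3%, beside 6.6% of all tested genes) and 0 lower with limma (1 at an unadjusted p under 0.05). The median difference was 1.72 beside 0.0694 over all tested genes. The count of higher members was 18 under median ratio scaling, 19 under quantile normalization and 18 without BF-4d replicate 3. By role, 2 of 2 actins, 11 of 16 actin-binding genes and 4 of 5 myosin genes were called, and 0 of 3 regulators. Actin-binding TAGLN (transgelin, a marker of smooth muscle; chromosome 9) read 49.6, 37.9 and 9.29 FPKM in BF-4d and 863, 882 and 811 FPKM in IMF-4d, a difference of 4.97 (SE 0.47, adjusted p = 8.84e-08). MYLK, the kinase that phosphorylates myosin light chains and so starts contraction, read 1.04, 0.777 and 0.489 FPKM in BF-4d and 63.4, 92.8 and 117 FPKM in IMF-4d (5.67, SE 0.39, adjusted p = 1.36e-09). Its subcutaneous libraries were all near 1 FPKM or below. ACTG2, the enteric smooth muscle actin, read 3.25, 1.62 and 0.583 FPKM in BF-4d and 64.7, 66.8 and 81.4 FPKM in IMF-4d (4.78, SE 0.41, adjusted p = 3.04e-08). CNN1 (calponin, 4.20) and LMOD1 (leiomodin, 3.35) were higher as well. SRF, the factor that drives many of these promoters, differed by 0.62 (adjusted p = 0.00233), under the size needed for a call.

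These genes also mark smooth muscle cells and pericytes, the contractile cells around small vessels. The summed level of the 12 markers of those cells was 35.3 to 126 FPKM in BF-4d and 2030 to 2090 FPKM in IMF-4d, and 6 of 11 tested were higher and 1 lower. ACTA2 and TAGLN made up most of that sum in IMF-4d, whereas in BF-4d replicate 2 RGS5 alone held more than either. CSPG4 (the NG2 proteoglycan of pericytes) read 0.976, 1.20 and 0.936 FPKM in BF-4d and 12.4, 14.6 and 12.6 FPKM in IMF-4d and was higher (2.80, SE 0.38, adjusted p = 7.29e-06), whereas RGS5, another pericyte gene, was lower, at 31.1, 55.6 and 11.102 FPKM in BF-4d and 4.40, 4.59 and 5.28 FPKM in IMF-4d. Its difference was -2.29 (SE 0.47, adjusted p = 5.54e-04), a call lost when only the day 4 libraries were fitted. Whether the number of such cells differed between the cultures was not tested.

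Promoters of 2 leading cytokine genes are shown because binding sites of the factors NF-kappa-B and AP-1 are known in genes of this group. Binding sites of SRF (the CArG box) are known in contractile genes and were counted as well. They are the 250 bases before the annotated start, 5′ to 3′, from the RefSeq annotation of Sscrofa11.1, with matches of the searched motifs in capitals: CXCL8 at chr8:69932396-69932645 (plus strand) and IL11 at chr6:59544910-59545159 (minus strand, predicted start).
CXCL8: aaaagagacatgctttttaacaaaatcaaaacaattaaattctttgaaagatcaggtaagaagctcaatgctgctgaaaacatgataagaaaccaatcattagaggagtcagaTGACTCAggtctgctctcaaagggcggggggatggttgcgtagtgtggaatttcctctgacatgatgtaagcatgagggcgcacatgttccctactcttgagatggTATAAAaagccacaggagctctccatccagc
IL11: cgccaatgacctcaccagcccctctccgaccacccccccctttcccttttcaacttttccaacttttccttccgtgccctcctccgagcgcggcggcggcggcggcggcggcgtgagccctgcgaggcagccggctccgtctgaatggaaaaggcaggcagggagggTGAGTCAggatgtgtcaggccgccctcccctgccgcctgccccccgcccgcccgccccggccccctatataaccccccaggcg
Motifs were searched on both strands by exact letters: the CArG box and the NF-kappa-B site by their usual consensus, the AP-1 site as TGANTCA, the cAMP response element as TGACGTCA and the TATA box as TATAAA. In CXCL8 the capitals mark an AP-1 site ending 130 bases and a TATA box ending 25 bases before the start, and in IL11 an AP-1 site ending 76 bases before it. The promoter of LIF, read as well but not shown, held a TATA box and no other searched motif. No NF-kappa-B match was found in CXCL8, IL11 or LIF, and sites that depart from the searched letters were not looked for. A CArG box was present in 4 of the 18 called contractile promoters (22.2%), against 1.15% of the 10835 promoters of tested genes and 1.34% of all 19519 promoters read. Over all called genes it was in 11 of 877 promoters of genes higher in IMF-4d (1.25%) and 8 of 580 of genes lower (1.38%). Among the 18 genes of the cytokine list lower in IMF-4d, 6 promoters held an NF-kappa-B site (33.3%, against 6.04% of tested genes and 5.88% of all) and 5 an AP-1 site (27.8%, against 3.99% and 5.11%). Those 18 include 6 that were listed as NF-kappa-B feedback genes, so the first share was partly set by how the list was chosen. Over all genes lower in IMF-4d the shares were 7.59% and 7.24%, and over all genes higher 6.16% and 4.1%. A cAMP response element was found in 22 of 580 promoters of genes lower in IMF-4d (3.79%), in 7 of 877 of genes higher (0.798%), in 2.39% of tested genes and in 1.77% of all. These are counts of letters in a window and not of bound sites.

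Called collagen chains differed in direction by class. Of 30 listed chains 22 were tested, of which 7 were higher and 4 lower in IMF-4d (median 0.57). Chains of fibrils that were called were all higher. COL1A1, the main chain of type I collagen, read 969, 526 and 534 FPKM in BF-4d and 4148, 4429 and 4516 FPKM in IMF-4d. The lowest IMF-4d library was far above the highest BF-4d library, a difference of 2.75 (SE 0.27, adjusted p = 1.21e-07). COL11A1, which nucleates fibrils, read 2.21, 0.957 and 0.826 FPKM in BF-4d and 54.7, 54.6 and 65.5 FPKM in IMF-4d (4.71, SE 0.28, adjusted p = 1.93e-10). The fibril-associated COL14A1 differed by 4.20 and the network-forming COL8A2 by 3.16. Of 5 tested chains of basement membrane, the sheet that encloses mature fat cells and vessels, 3 were lower and 0 higher. COL4A1 read 754, 801 and 611 FPKM in BF-4d and 182, 177 and 174 FPKM in IMF-4d (-2.01, SE 0.28, adjusted p = 1.21e-05), and COL4A2 and COL18A1 were lower too (-1.49 and -1.50). COL13A1, a transmembrane collagen, read 6.32, 5.69 and 5.73 FPKM in BF-4d and 0 FPKM in all of IMF-4d, where it was listed at 0. Beaded-filament COL6A1 (0.68) and fibril-associated COL12A1 (0.44, adjusted p = 0.221) were not called.

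Elastic fibre and matricellular genes gave 23 higher and 1 lower of 37 tested (median 1.3), and 19 higher and 0 lower without BF-4d replicate 3. Besides MGP and THBS4, CCN2 (connective tissue growth factor, a target of the YAP pathway) read 4.72, 5.25 and 13.8 FPKM in BF-4d and 162, 167 and 186 FPKM in IMF-4d (4.41, SE 0.51, adjusted p = 1.27e-06), and MFAP5, a microfibril protein, read 5.51, 3.22 and 0.9998 FPKM in BF-4d and 79.3, 76.3 and 77.5 FPKM in IMF-4d (4.37, SE 0.29, adjusted p = 8.96e-10). BF-4d replicate 3 was the lowest library for MFAP5 and the highest of its group for CCN2. The only member lower in IMF-4d was LOXL2, a collagen crosslinking enzyme (-1.03, SE 0.14, adjusted p = 7.42e-06). Its call was lost after quantile normalization and with library weights. Small leucine-rich proteoglycans, which coat collagen fibrils, gave 8 higher and 0 lower of 11 tested (median 1.84). ECM2 read 3.997, 1.84 and 0.379 FPKM in BF-4d and 83, 77 and 85.1 FPKM in IMF-4d (4.94, SE 0.35, adjusted p = 2.07e-09), ASPN read 55.3, 20.6 and 7.29 FPKM in BF-4d and 556, 527 and 579.7 FPKM in IMF-4d (4.68, SE 0.47, adjusted p = 1.87e-07) and OGN read 8.04, 4.12 and 2.46 FPKM in BF-4d and 102, 96 and 102 FPKM in IMF-4d (4.22, SE 0.33, adjusted p = 6.20e-09). For all 3 the groups did not overlap and replicate 3 was the lowest BF-4d library. OMD was higher by 2.59. The most abundant members by FPKM, DCN (decorin, 1.22) and BGN (biglycan, 1.91), differed less.

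Of 29 matrix proteases, inhibitors and receptors tested, 3 were higher and 8 lower in IMF-4d. By role, 2 of 3 collagenases or stromelysins, 1 of 2 gelatinases and 0 of 5 membrane proteases were lower, and of 12 other proteases 3 were higher and 3 lower. Of 6 inhibitors 1 was lower, TIMP1 (-1.31, lost in the fit of only day 4 libraries). MMP1 (interstitial collagenase) read 137, 327 and 3998 FPKM in BF-4d and 3.51, 2.93 and 4.85 FPKM in IMF-4d, with a difference of -6.91 (SE 0.86, adjusted p = 3.39e-06) that was -5.50 without replicate 3, the library with by far the most. ADAMTS4 (aggrecanase 1) read 50.9, 44.9 and 146 FPKM in BF-4d and 1.73, 1.53 and 1.77 FPKM in IMF-4d (-4.72, SE 0.36, adjusted p = 5.61e-09). PLAUR, the receptor that holds urokinase at the cell surface, was lower (-4.29) while its ligand PLAU was higher (1.83). MMP13 read 2.62, 2.35 and 118 FPKM in BF-4d and 0.191, 0.0700 and 0.0399 FPKM in IMF-4d (-3.36, lost with only the day 4 libraries fitted). The other 2 members higher in IMF-4d were MMP28 (1.68) and MMP23B (1.03, lost in that fit and after both other scalings). MMP14, the membrane-bound collagenase, was not called (-0.56, adjusted p = 0.024), nor was MMP11 (-0.28, adjusted p = 0.0791).

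Cytokine genes held some of the largest differences downwards, with CXCL8 the largest among genes with a symbol. The list held 51 chemokines, interleukins, colony-stimulating factors, their receptors and feedback genes of NF-kappa-B. Of these 42 were tested, of which 18 were lower and 5 higher in IMF-4d (median -1.15), with 3 higher when only the day 4 libraries were fitted. Without BF-4d replicate 3 the counts were 17 and 4. By role, 5 of 8 interleukins, 6 of 7 NF-kappa-B feedback genes and 3 of 13 chemokines were lower. LIF (leukemia inhibitory factor, an IL6 family cytokine) read 337, 384 and 1338 FPKM in BF-4d and 2.26, 1.38 and 2.16 FPKM in IMF-4d (-7.59, SE 0.62, adjusted p = 2.06e-08). CXCL14, a chemokine of skin and fat stroma, read 753, 904 and 362 FPKM in BF-4d and 5.96, 4.44 and 5.19 FPKM in IMF-4d (-6.67, SE 0.60, adjusted p = 6.22e-08). It was the exception in being lowest in BF-4d replicate 3. IL6 read 533, 747 and 2011 FPKM in BF-4d and 29, 21.8 and 27 FPKM in IMF-4d and IL1A read 38.7, 67.6 and 677 FPKM in BF-4d and 0.138, 0.111 and 0.503 FPKM in IMF-4d, with differences of -5.12 (SE 0.54, adjusted p = 4.65e-07) and -6.63 (SE 0.67, adjusted p = 2.83e-07). IL6ST, the receptor chain that IL6, IL11 and LIF share, was lower (-1.88), and IL11RA was higher (1.29, lost with only the day 4 libraries fitted). The members higher in IMF-4d were IL34 (2.81), CXCL12 (2.30, lost in 5 of the 6 refits with a library removed), CCL11 (1.87), CSF1 (1.75) and IL11RA. CCL2, a chemokine for monocytes, had high levels in both depots, 334, 642 and 1323 FPKM in BF-4d and 293, 284 and 282 FPKM in IMF-4d. It was not called (-1.20, adjusted p = 0.0548), and neither was the receptor IL1R1 (-0.94, adjusted p = 7.94e-05).

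Genes for successive steps of prostaglandin synthesis were lower in IMF-4d. Of 16 tested genes of this pathway 6 were lower and 2 higher. PLA2G4A, the phospholipase that frees arachidonic acid, read 173, 222 and 313 FPKM in BF-4d and 7.32, 6.73 and 7.84 FPKM in IMF-4d (-4.80, SE 0.37, adjusted p = 5.35e-09). PTGS1, the constitutive cyclooxygenase, read 32.5, 80.3 and 86.4 FPKM in BF-4d and 7.83, 8.02 and 6.45 FPKM in IMF-4d (-2.88, SE 0.29, adjusted p = 1.83e-07), and PTGES, the prostaglandin E synthase, read 237, 316 and 799.6 FPKM in BF-4d and 55.2, 53.5 and 51.6 FPKM in IMF-4d (-2.85, SE 0.35, adjusted p = 1.93e-06). Together with PTGS2 these lead from membrane lipid to prostaglandin E2, and in each the 3 BF-4d libraries lay above the 3 IMF-4d libraries. PTGIS, the prostacyclin synthase, was higher in IMF-4d at 20.6, 22.6 and 8.93 FPKM in BF-4d and 71.6, 72.9 and 74.6 FPKM in IMF-4d (2.11, SE 0.29, adjusted p = 9.48e-06). PRXL2B was higher as well (1.16), a call lost after quantile normalization.

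EGF family ligands bind EGFR and promote growth over differentiation in many cells. Of 17 tested members of the list 8 were lower and 0 higher in IMF-4d: 3 of 6 ligands, 5 of 7 inhibitors and 0 of 4 receptors. EREG (epiregulin) read 156, 201 and 399.8 FPKM in BF-4d and 0.207, 0.181 and 0.211 FPKM in IMF-4d (-7.60, SE 0.48, adjusted p = 6.04e-10). AREG (amphiregulin) read 325, 370.0 and 496 FPKM in BF-4d and 2.03, 2.37 and 2.08 FPKM in IMF-4d (-6.96, SE 0.48, adjusted p = 1.72e-09). IMF-4d held under 3 FPKM of either in every library. Feedback inhibitors of the pathway were lower as well, DUSP4 (-3.31) and SPRY4 (-2.50) among them. EGFR itself was not called (-0.42, adjusted p = 0.0321). In the FGF family 1 of 13 tested was higher and 1 lower, near the background of 6.6% and 4.72%, and 3 were lower without BF-4d replicate 3. The 1 lower with all libraries was FGF10, a ligand made by mesenchyme that supports preadipocytes. It read 64.1, 61.2 and 48.8 FPKM in BF-4d and 0.514, 0.623 and 0.590 FPKM in IMF-4d (-5.22, SE 0.36, adjusted p = 1.35e-09). FGF18 was higher (1.98), and the receptor FGFR1 (0.39) and ligand FGF1 (0.25, adjusted p = 0.385) were not called.

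Glycolysis enzymes were lower in IMF-4d, while no citrate cycle enzyme was called. Of 21 glycolysis genes 12 were lower and 0 higher (median -1.19, beside 0.0694 over all genes), and of 20 citrate cycle genes 0 were called with limma (median 0.056, with 10 at an unadjusted p under 0.05, 6 of them higher and 4 lower). LDHA, which turns pyruvate into lactate, read 969.7, 882 and 1027 FPKM in BF-4d and 274, 243 and 262 FPKM in IMF-4d (-1.88, SE 0.20, adjusted p = 3.12e-07). SLC16A3, the exporter of lactate, read 73.9, 68.8 and 143 FPKM in BF-4d and 5.32, 4.25 and 4.28 FPKM in IMF-4d (-4.02, SE 0.48, adjusted p = 1.66e-06). The regulator PFKFB3 (-2.38) and the enolase ENO2 (-1.72) had differences of similar kind, the first lost with only the day 4 libraries fitted. HK1 (-0.21, adjusted p = 0.508) and, in the citrate cycle, CS (-0.26, adjusted p = 0.033) were not called. Of 19 hypoxia-inducible genes 9 were lower and 0 higher. VEGFA, the main vessel growth factor, read 349, 420.0 and 914 FPKM in BF-4d and 29.1, 30.3 and 27.1 FPKM in IMF-4d (-4.11, SE 0.35, adjusted p = 2.51e-08), highest in BF-4d replicate 3. STC1 (stanniocalcin 1) read 114, 174 and 337 FPKM in BF-4d and 0.115, 0.110 and 0.709 FPKM in IMF-4d (-7.20, SE 0.70, adjusted p = 1.70e-07). EGLN3, an oxygen sensor of the prolyl hydroxylase family, was lower (-2.96), and so was MXI1 (-2.41). HIF1A, the regulator, whose activity is set by protein stability, was not called (-0.66, adjusted p = 0.019). Oxygen and cell density were not measured.

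Adipocyte genes that were called were mostly lower in IMF-4d. Of 35 listed, 32 were in the table and 24 tested, with a median of -0.0791. In IMF-4d 2 were higher, near the background of 6.6%, and 6 lower (background 4.72%). The regulators PPARG (2.17, 0.919 and 1.64 FPKM in BF-4d and 1.31, 0.732 and 0.517 FPKM in IMF-4d; -0.47, adjusted p = 0.215) and CEBPA (7.27, 2.86 and 1.92 FPKM in BF-4d and 6.36, 5.74 and 5.57 FPKM in IMF-4d; 0.60, adjusted p = 0.0443) were not called, and FABP4, the fatty acid carrier of fat cells, was near 0 in both, at 1.01, 0.822 and 0.176 FPKM in BF-4d and 0, 0 and 0.164 FPKM in IMF-4d (-0.63, adjusted p = 0.0392). The early regulator CEBPB was lower at 30.9, 34.5 and 52.1 FPKM in BF-4d and 14, 14.6 and 12.6 FPKM in IMF-4d (-1.42, SE 0.25, adjusted p = 1.09e-04), and EBF2 was higher at 6.16, 5.72 and 7.03 FPKM in BF-4d and 16.9, 16.5 and 16.1 FPKM in IMF-4d (1.27, SE 0.21, adjusted p = 5.38e-05). LPL (lipoprotein lipase, which releases fatty acids for uptake) read 176, 313 and 178 FPKM in BF-4d and 6.44, 4.69 and 5.36 FPKM in IMF-4d (-5.06, SE 0.58, adjusted p = 1.36e-06). PLIN2, the droplet coat found in most lipid-storing cells, read 142, 138 and 206 FPKM in BF-4d and 24.7, 22.7 and 23.4 FPKM in IMF-4d (-2.70, SE 0.23, adjusted p = 2.51e-08). CFD (adipsin) read 16.3, 18.1 and 63.2 FPKM in BF-4d and 1.72, 1.11 and 1.38 FPKM in IMF-4d (-3.53, SE 0.36, adjusted p = 2.05e-07). In LPL, PLIN2 and CFD every BF-4d library lay above every IMF-4d library. MGLL, which completes lipolysis, was higher in IMF-4d (1.31). PNPLA2 (-0.23, adjusted p = 0.138) and GPAM (0.00, adjusted p = 0.986) were not called.

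The study followed 3 genes by qRT-PCR, and all 3 were lower in IMF-4d in the fit on 24 libraries, AGT alone also in the fit of only day 4 libraries. AGT (angiotensinogen, secreted by fat and liver) read 14.1, 30.2 and 32.4 FPKM in BF-4d and 0.918, 0.679 and 0.947 FPKM in IMF-4d (-3.77, SE 0.21, adjusted p = 1.22e-10) and was called in all 6 fits with a library left out. The gene that the study names GK (glycerol kinase; ENSSSCG00000012202) read 23.9, 30.9 and 7.17 FPKM in BF-4d and 4.14, 3.49 and 4.01 FPKM in IMF-4d, a difference of -1.94 (SE 0.40, adjusted p = 6.53e-04) that was lost with only the day 4 libraries fitted. CAT (catalase, which breaks down hydrogen peroxide) read 128, 115 and 30.2 FPKM in BF-4d and 28, 28.1 and 26.9 FPKM in IMF-4d. BF-4d replicate 3 lay within a few FPKM of IMF-4d, and the difference (-1.44, SE 0.39, adjusted p = 0.00593) was called in 1 of the 6 refits with a library removed, and was not called with only day 4 libraries or without the filter on low values. AGT was on the list from which GK and CAT also came, the 30 candidates for subcutaneous fat that the study chose on these samples. In that list 15 were lower (9 in the fit of only day 4 libraries) and 5 higher, and of its 22 candidates for intramuscular fat 6 were lower and 1 higher, which is not independent evidence of a direction. Besides PCK1 the subcutaneous list held HGF (hepatocyte growth factor), at 29.4, 52.6 and 78.5 FPKM in BF-4d and 2.003, 1.62 and 1.46 FPKM in IMF-4d (-4.23, SE 0.40, adjusted p = 1.03e-07), and the retinoic acid hydroxylase CYP26B1. Higher in IMF-4d from that list were GRIN3A (2.28), GADD45G (1.78), NFATC1 (1.61) and ENSSSCG00000035293 (1.17), the last a call lost with library weights. From the intramuscular list ATP1B1 (-2.90), NDUFA4L2 (-2.21), ANGPT1 (-2.08) and GLA (-1.58) were lower. ENSSSCG00000037487 was higher (1.12), a call lost after quantile normalization.

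Cholesterol synthesis was higher in IMF-4d at most steps. Of 30 cholesterol genes tested 14 were higher and 1 lower (median 0.95), and 13 of the 18 synthesis enzymes were higher. IDI1, which makes the second isoprene unit of the pathway, read 11.5, 11.4 and 13.5 FPKM in BF-4d and 63.8, 58.9 and 64.6 FPKM in IMF-4d (2.28, SE 0.16, adjusted p = 2.14e-09). DHCR7, at the end of the pathway, read 5.22, 6.07 and 5.17 FPKM in BF-4d and 27.7, 28.5 and 23.2 FPKM in IMF-4d (2.08, SE 0.13, adjusted p = 5.48e-10), and SQLE was higher by 1.86. The groups of IDI1 and DHCR7 did not overlap, with replicate 3 close to the other subcutaneous libraries. SOAT1, which esterifies cholesterol for storage, was lower at 36.6, 27.3 and 19.7 FPKM in BF-4d and 4.95, 5.05 and 5.61 FPKM in IMF-4d (-2.18, SE 0.36, adjusted p = 5.99e-05). Of 12 fatty acid synthesis genes tested, only the desaturases FADS1 (1.23) and FADS2 (1.21) were called, both higher. ACLY was under the size needed (0.75).

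**Figure D3:**
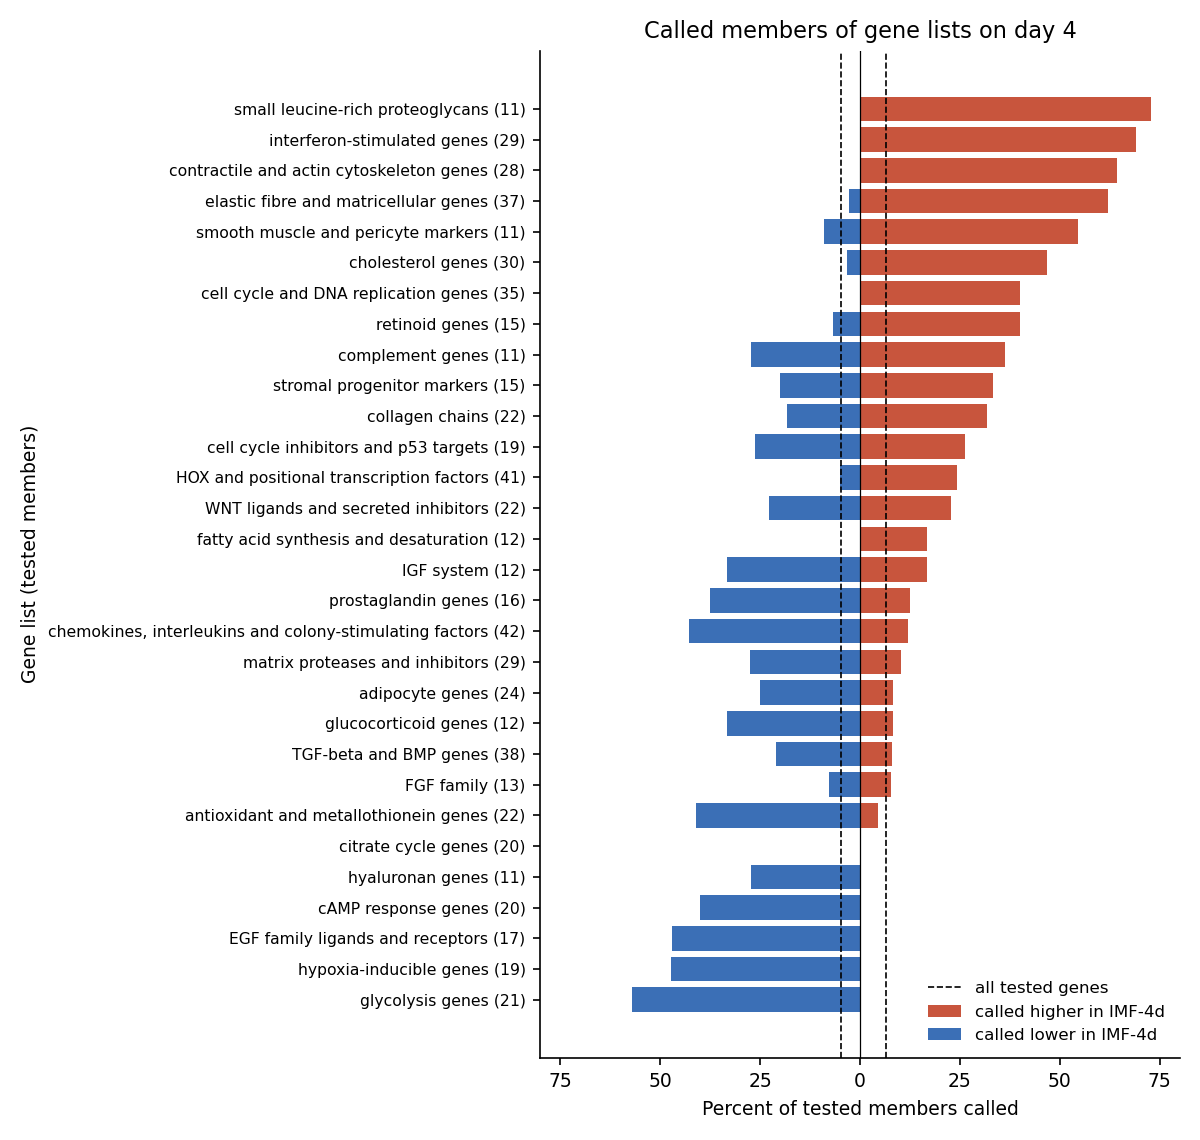
Percentage of tested members of each gene list that were called higher (right) or lower (left) in IMF-4d on day 4, with the share over all tested genes (6.6% higher, 4.72% lower) drawn for reference. Contractile, elastic fibre, proteoglycan, interferon-stimulated and cholesterol genes lie mostly to the right and glycolysis, hypoxia-inducible, EGF family and cAMP response genes to the left.

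Signalling genes were mixed in most families. Of 38 TGF-beta and BMP genes 3 were higher, near the background of 6.6%, and 8 lower (background 4.72%), 5 of the latter direction in the fit of only day 4 libraries. The ligands TGFB2 (-2.10), GDF15 (-2.49) and BMP2 (-2.46) were lower, and the calls of TGFB2 and GDF15, like that of CHRDL1 below, were among those lost with only the day 4 libraries fitted. ID2, a target of BMP signals that holds back differentiation factors, read 216, 203 and 220.2 FPKM in BF-4d and 40.7, 41.7 and 38.9 FPKM in IMF-4d (-2.37, SE 0.24, adjusted p = 1.94e-07). The members higher were the BMP antagonists CHRD (1.51) and CHRDL1 (1.49) and the co-receptor ENG (1.27). TGFB1 (-0.44, adjusted p = 0.157), TGFBR1 (0.28, adjusted p = 0.36) and NOG (-0.46, adjusted p = 0.213) were not called. Of 22 WNT genes 5 were higher and 5 lower. WNT5A, a noncanonical ligand, read 30.7, 47.4 and 192 FPKM in BF-4d and 0.639, 0.932 and 0.917 FPKM in IMF-4d (-5.19, SE 0.48, adjusted p = 6.91e-08). Secreted WNT inhibitors were not of one direction. SFRP2 read 382, 354 and 88.6 FPKM in BF-4d and 3285, 3227 and 2857 FPKM in IMF-4d (3.76, SE 0.38, adjusted p = 1.99e-07) and SFRP4 read 13.5, 6.77 and 4.14 FPKM in BF-4d and 249.6, 249 and 229 FPKM in IMF-4d (4.87, SE 0.35, adjusted p = 2.07e-09), both higher in IMF-4d, while SFRP1 read 434, 702 and 238 FPKM in BF-4d and 53.3, 51.9 and 53.5 FPKM in IMF-4d (-2.96, SE 0.43, adjusted p = 1.61e-05). SFRP5 (2.57) and DKK2 (1.24, lost in 4 of 6 refits with a library removed) were higher, and WNT11 (-2.57) and the WNT target AXIN2 (-1.30) lower. WNT2 was not called (-0.19, adjusted p = 0.0499).

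In the IGF system 2 of 12 tested genes were higher and 4 lower. IGFBP5, an IGF binding protein, read 1625, 1832 and 1129 FPKM in BF-4d and 122, 126 and 126 FPKM in IMF-4d (-3.58, SE 0.50, adjusted p = 1.19e-05). IGFBP6, which prefers IGF2, read 1.57, 1.44 and 2.35 FPKM in BF-4d and 70.7, 74.3 and 69.3 FPKM in IMF-4d (4.71, SE 0.18, adjusted p = 3.31e-13). The groups of both genes were wide apart, in opposite directions. IGFBP2 (-1.74) and IGFBP4 (-1.43) were lower and IGFBP7 higher (1.11). The call of IGFBP4 was lost in the fit of only day 4 libraries and in 5 of 6 refits with a library removed, and that of IGFBP7 with median ratio scaling and with library weights. The count of lower members was 2 without IMF-4d replicate 3 and 5 without BF-4d replicate 3. IGF1, the ligand, ranged widely in BF-4d (327, 175 and 62.1 FPKM in BF-4d and 93.8, 90.8 and 88.3 FPKM in IMF-4d) and was not called (-0.74, adjusted p = 0.171), nor were IGF1R (-0.49, adjusted p = 0.0346) and PAPPA, a protease that frees IGF from its binding proteins (0.63, adjusted p = 0.261).

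Of the agents of the first 2 days, IBMX and dexamethasone had been withdrawn by day 4, while insulin had been kept. Of 20 cAMP response genes 8 were lower in IMF-4d and 0 higher (median -0.85). The nuclear receptor NR4A2 read 87.9, 96 and 61.3 FPKM in BF-4d and 4.61, 3.98 and 4.45 FPKM in IMF-4d (-3.93, SE 0.45, adjusted p = 1.09e-06), and NR4A3 (-3.54) and NR4A1 (-2.90) were lower, as was the phosphodiesterase PDE4D (-3.04). PDE3A (-0.39, adjusted p = 0.191) and the adenosine receptor ADORA1 (-0.28, adjusted p = 8.82e-04) were not called. Of 12 glucocorticoid genes 4 were lower and 1 higher. ANGPTL4, an inhibitor of LPL that fasting and hypoxia also induce, read 64.4, 48.1 and 97 FPKM in BF-4d and 9.63, 8.30 and 6.92 FPKM in IMF-4d (-2.88, SE 0.27, adjusted p = 6.98e-08), DUSP1 (-2.10), SGK1 (-1.71) and ERRFI1, an inhibitor of EGFR (-1.61), were lower, and CDKN1C was higher by 1.16. The receptor NR3C1 (0.33, adjusted p = 0.257) and FKBP5, a much used target (0.30, adjusted p = 0.398), were not called.

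Retinoid genes differed in both directions. Retinoic acid is made from retinol in successive oxidation steps and is removed by CYP26 enzymes. ALDH1A3, which makes retinoic acid, read 8.80, 7.003 and 8.76 FPKM in BF-4d and 141, 133 and 169 FPKM in IMF-4d (4.01, SE 0.40, adjusted p = 1.82e-07). DHRS3, which returns retinal to retinol, read 9.32, 2.87 and 2.18 FPKM in BF-4d and 136, 128 and 125 FPKM in IMF-4d (4.70, SE 0.30, adjusted p = 6.19e-10). CYP26B1, which breaks retinoic acid down, read 25.9, 29.5 and 50.5 FPKM in BF-4d and 1.11, 1.59 and 1.44 FPKM in IMF-4d (-3.88, SE 0.23, adjusted p = 2.31e-10). The groups did not overlap in any of the 3 genes. Of 15 genes tested 6 were higher and 1 lower, the others higher including the carriers CRABP2 (2.96) and CRABP1 (2.35). ALDH1A1 (0.71, adjusted p = 0.0513) and RARA (-0.39, adjusted p = 0.0169) were not called, and retinoic acid itself was not measured.

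Of the tested cell cycle genes 40% were called higher in IMF-4d, beside 6.6% of all tested genes, and the count depended on the libraries and the fit. Of 35 tested 14 were higher and 0 lower (median 0.89, with 32 higher and 0 lower at an unadjusted p under 0.05), with 18 higher without BF-4d replicate 1 and 7 without BF-4d replicate 3. CDC20, an activator of the anaphase complex, read 5.42, 4.38 and 1.06 FPKM in BF-4d and 16.4, 18.6 and 16.2 FPKM in IMF-4d (2.12, SE 0.27, adjusted p = 3.20e-06), lowest in replicate 3. KIF20A, a motor of cell division, read 5.07, 4.26 and 1.12 FPKM in BF-4d and 14.8, 13.9 and 15.2 FPKM in IMF-4d (1.94, SE 0.25, adjusted p = 4.25e-06), MCM4 (1.63) and BIRC5 (1.57) were higher, and CDK1 was not called (0.53, adjusted p = 0.0653). With only the day 4 libraries fitted 8 were called, 1 with a replicate block as well, 9 after quantile normalization and 22 with pseudocount 0.1. Among 19 cell cycle inhibitors and p53 targets 5 were higher and 5 lower (3 lower in the fit of only day 4 libraries). CDKN2B (p15, a brake on the G1 phase) read 21.9, 47.4 and 23.3 FPKM in BF-4d and 4.89, 4.37 and 4.59 FPKM in IMF-4d (-2.42, SE 0.24, adjusted p = 1.32e-07), and FAS, a death receptor (-1.73), and TP53INP1 (-1.68) were lower. GADD45A (1.87) and CDKN2C (1.24) were higher. The calls of FAS and CDKN2C were lost in the fit of only day 4 libraries, as was that of BIRC5. CDKN1A (p21, -0.75) and MDM2 (0.02, adjusted p = 0.938) were not called.

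Interferon-stimulated genes formed the list with the highest median difference, 2.82, but also with wide spread. Of 29 tested 20 were higher in IMF-4d and 0 lower. IFIT1, an antiviral RNA-binding protein, read 0.643, 0.697 and 11.2 FPKM in BF-4d and 54.9, 69.8 and 102 FPKM in IMF-4d (4.52, SE 0.95, adjusted p = 7.43e-04), and RSAD2 (viperin) read 0.580, 0.252 and 1.92 FPKM in BF-4d and 24.9, 26.2 and 49.4 FPKM in IMF-4d (4.19, SE 0.97, adjusted p = 0.00176). HERC6 (3.92) and BST2 (3.46) were higher too. BF-4d replicate 3 held the most of each of these within its depot and still lay below every IMF-4d library. MX1, another antiviral effector, read 14.8, 13.4 and 50.1 FPKM in BF-4d and 177, 184 and 225 FPKM in IMF-4d (3.10, SE 0.60, adjusted p = 3.62e-04). The count was 10 to 13 when any 1 of the 5 libraries other than BF-4d replicate 3 was removed, and 19 without that one. With only the 6 day 4 libraries fitted it was 21, and 17 of the 20 kept their call. The estimate of spread was otherwise shared with the other days, and the list summed to 591, 11367 and 4789 FPKM in the BF-8d libraries. The depots already differed in this direction on day 0, when 8 members were called higher, and 0 of the 29 were called for a change from day 0 to day 4 with limma (2 at an unadjusted p under 0.05).

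Antioxidant genes gave 9 lower and 1 higher of 22 tested, and 6 lower without BF-4d replicate 3. NQO1, a target of the stress factor NRF2, read 99.8, 132 and 104 FPKM in BF-4d and 9.22, 10.7 and 11.3 FPKM in IMF-4d (-3.30, SE 0.25, adjusted p = 4.87e-09). PRDX6, which reduces lipid peroxides, read 239.7, 278 and 273 FPKM in BF-4d and 55.5, 50.3 and 48.9 FPKM in IMF-4d (-2.33, SE 0.34, adjusted p = 1.90e-05), SOD2 (-2.24) and SOD3 (-2.22) were lower, and GPX7 was higher by 1.05, a call lost after both other scalings. TXNIP, which inhibits thioredoxin, was not called (0.97, adjusted p = 0.0237).

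Positional genes, which keep a record of where in the embryo a fibroblast arose, gave 10 higher and 2 lower of 41 tested. The count of higher members was 7 under median ratio scaling, 6 under quantile normalization and 7 without BF-4d replicate 3, while 22 members in all were called with pseudocount 0.1. MEOX2, a homeobox gene of somites and limb muscle precursors, read 0.235, 0.212 and 0.104 FPKM in BF-4d and 16.8, 17 and 17.1 FPKM in IMF-4d (3.93, SE 0.16, adjusted p = 8.31e-13). HOXA5 read 2.02, 1.89 and 1.39 FPKM in BF-4d and 11.8, 12.1 and 11.6 FPKM in IMF-4d (2.22, SE 0.14, adjusted p = 5.55e-10) and HOXA9 read 1.62, 1.06 and 1.59 FPKM in BF-4d and 8.17, 9.28 and 9.02 FPKM in IMF-4d (2.03, SE 0.13, adjusted p = 7.86e-10). All 3 were also called higher in IMF on days 0, 2 and 8. HOXC9 was higher by 1.39. HOXC4 (-1.40) and TBX3 (-1.97) were lower.

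Complement genes went in both directions. Of 11 tested, 4 were higher and 3 lower, with both classical genes higher and the genes listed under the alternative arm giving 1 higher and 2 lower of 4. C4A of the classical arm read 0.733, 0.446 and 0.109 FPKM in BF-4d and 19.99, 20.8 and 17.3 FPKM in IMF-4d (3.85, SE 0.16, adjusted p = 1.22e-12), C2 was higher (2.26), and CLU (clusterin, an inhibitor) read 377, 408 and 202 FPKM in BF-4d and 1899, 1836 and 1730.0 FPKM in IMF-4d (2.53, SE 0.19, adjusted p = 4.87e-09). CFD, described above, and CFB (-1.17) of the alternative arm were lower, the call of CFB being lost with library weights. CFI, an inhibitor that was listed with that arm, was higher (1.72). C3 was lower (-3.34), a call lost in the fit of only day 4 libraries. SERPING1, the inhibitor of C1, was not called (0.95, adjusted p = 0.0191). Of 11 hyaluronan genes 3 were lower and 0 higher. CEMIP, which starts hyaluronan breakdown, read 99.9, 168 and 336 FPKM in BF-4d and 10.9, 10.3 and 9.10 FPKM in IMF-4d (-4.01, SE 0.34, adjusted p = 2.15e-08), and CD44, the cell-surface receptor for hyaluronan, was lower (-1.64) together with TNFAIP6 (-3.31). HAS1 was not called (-0.14, adjusted p = 0.165). Among stromal progenitor markers, 5 of 15 were higher and 3 lower. PI16, a marker of early progenitors in many tissues, read 0.605, 0.341 and 0.145 FPKM in BF-4d and 19.9, 21.1 and 23.4 FPKM in IMF-4d (4.05, SE 0.27, adjusted p = 8.25e-10), and CD248 (2.18) and ZNF423 (1.36) were higher. PDGFRA, carried by most fibroblasts and fat precursors, was lower, at 325, 335 and 366 FPKM in BF-4d and 148, 142 and 143 FPKM in IMF-4d (-1.24, SE 0.24, adjusted p = 3.70e-04). F3 (-1.35) and PDGFRB (-1.01) were lower too. The calls of ZNF423 and F3 were lost in the fit of only day 4 libraries, and that of PDGFRB after quantile normalization.

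Day 4 was then set against the other days. Depot differences were called for 417 genes (2.58%) on day 0, 764 (4.74%) on day 2 and 1123 (6.96%) on day 8. These comparisons share no library with day 4. Of the genes called on day 0, 235 were also called on day 4 (56.4% of day 0, 12.9% of day 4), 202 in the same direction and 33 in the opposite. For day 2 the number was 576 (75.4% and 31.5%), 574 of them in the same direction, and for day 8 it was 577 (51.4% and 31.6%), 519 in the same direction and 58 opposite.

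The change of the depot difference itself was tested with an interaction term. From day 0 to day 4 it was called for 1439 genes (8.92%), 761 moving towards IMF and 678 towards BF. From day 4 to day 8 it was 1031 (6.39%), 614 towards IMF and 417 towards BF, and 1704 with library weights (818 and 886). From day 2 to day 4 it was 493 (3.06%), but 33 when only the 12 libraries of those days were fitted, 1 when a replicate block was added, and 270 to 879 with 1 library removed. The genes named next were chosen for their day 4 difference, which is part of this change. ACTA2 had started at similar levels, 1600.1 ± 45.8 FPKM in BF-0d and 1889 ± 219 FPKM in IMF-0d (SD, n = 3). By day 4 it was at 15.2 ± 7.42 and 1126 ± 19.9 FPKM, a change of the difference of 6.0, SE 0.77, adjusted p = 1.57e-05. COL1A1 went from 5753 ± 368 to 676 ± 253 FPKM in BF and from 6135 ± 332 to 4364 ± 192 FPKM in IMF (2.66, SE 0.38, adjusted p = 3.76e-05). In both genes the BF mean was far lower on day 4 than on day 0, and the IMF mean less so. CXCL8 stood in BF at 9.02 ± 1.61 FPKM on day 0 and at 3099.5 ± 4442 FPKM on day 4, with IMF at 0.732 ± 0.0933 and 0.872 ± 0.427 FPKM (-6.98, SE 1.10, adjusted p = 1.23e-04). PTGS2, IL11 and LIF had changes of -7.77, -8.27 and -7.83.

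Lists differed in whether day 4 was a new difference. Contractile genes had 3 of 28 members called higher on day 0 and 16 called for an upward change by day 4 (background 1.87% and 4.72%). Glycolysis reversed: 4 of 21 were higher in IMF on day 0 and 0 lower, and 15 changed downwards by day 4 (background 1.87%, 0.713% and 4.2%). LDHA went from 269.7 ± 7.61 to 959.8 ± 72.9 FPKM in BF and from 538 ± 19.2 to 259.6 ± 15.7 FPKM in IMF (-2.88, SE 0.28, adjusted p = 8.40e-07). SLC16A3 was higher in IMF on day 0 by 2.04 and changed by -6.06. Cholesterol genes had 0 higher and 1 lower on day 0, and 12 changed upwards and 1 downwards. Cell cycle genes were the opposite case, with 24 of 35 higher on day 0 and 0 called for a change with limma (11 at an unadjusted p under 0.05). THBS4, IGFBP6 and MEOX2 were called higher in IMF on all 4 days.

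Several day 4 differences were smaller on day 8. PCK1, at 172 ± 103 FPKM in BF-4d and 0.236 ± 0.104 FPKM in IMF-4d, stood at 45.2 ± 21.2 and 84.1 ± 17.9 FPKM on day 8. The difference then was 0.98, and its change from day 4 was called (7.85, adjusted p = 7.19e-05). IL11 stood at 3.96 ± 0.602 FPKM in IMF-4d and 828 ± 86.5 FPKM in IMF-8d, and its difference changed as well (7.70, adjusted p = 7.33e-05). SLC16A3 (3.43, adjusted p = 0.00134) and LPL (3.31, adjusted p = 0.00814) changed in the same direction. MYLK was low in both depots on day 8, at 0.349 ± 0.195 and 2.05 ± 1.46 FPKM (-4.61, adjusted p = 1.15e-05). MX1 passed from higher to lower in IMF, with a difference of -2.19 on day 8 (-5.30, adjusted p = 2.52e-04), where the BF-8d libraries ranged widely (356 ± 275 FPKM). ACTA2 kept a difference of 4.86 on day 8, and its change from day 4 was not called (-1.38, adjusted p = 0.239).

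**Figure D4:**
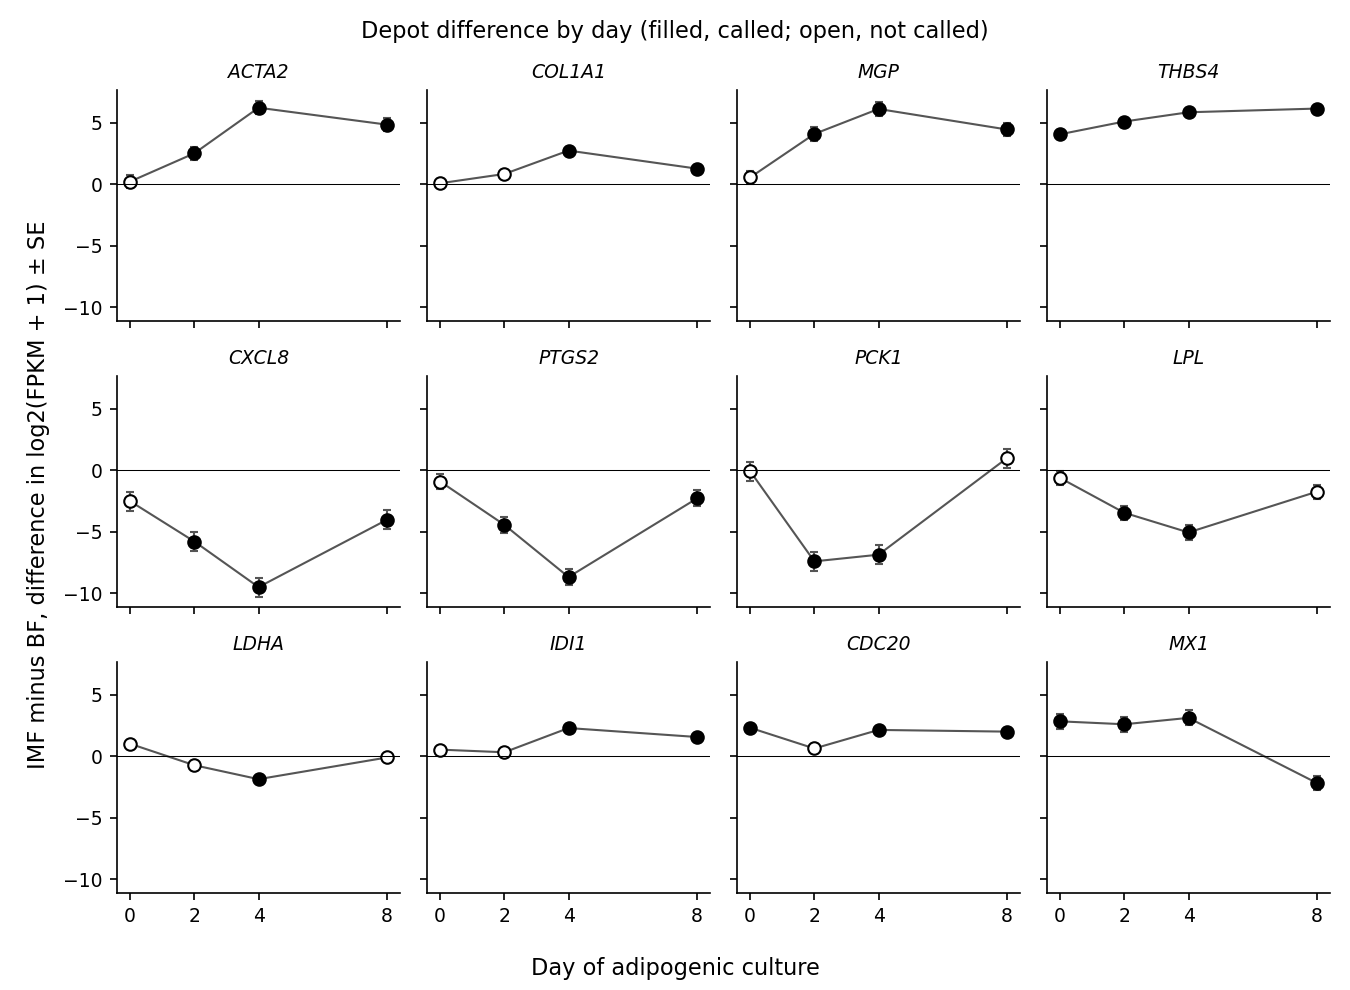
Difference between depots (IMF minus BF, log2(FPKM + 1), with standard errors) on days 0, 2, 4 and 8 for 12 named genes, filled where called. ACTA2 moves from 0.23 on day 0 to 6.24 on day 4, CXCL8 from -2.52 to -9.50, and PCK1 returns from -6.87 on day 4 to 0.98 on day 8.

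**Figure D5:**
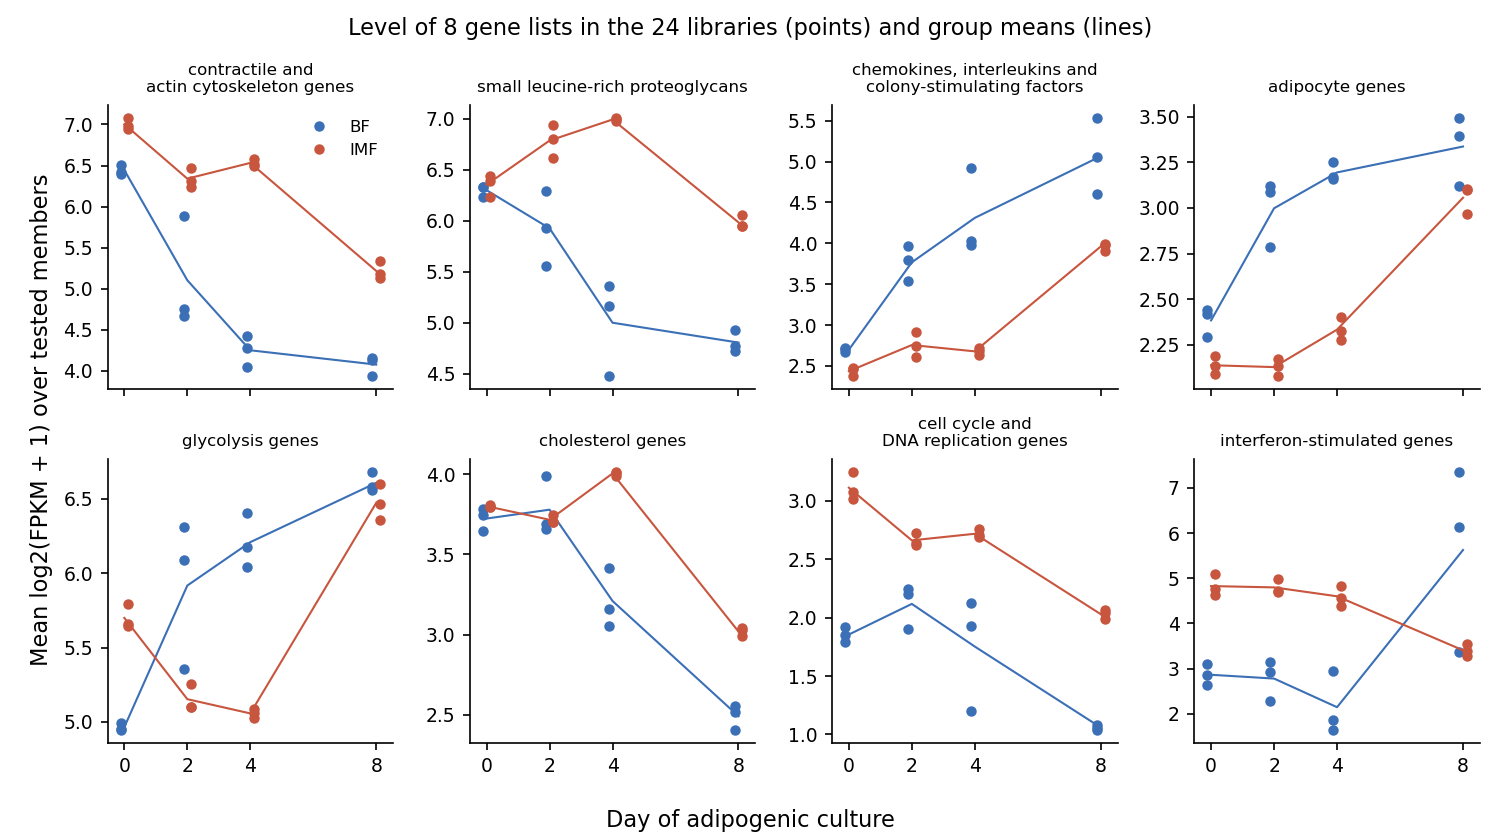
Mean log2(FPKM + 1) of the tested members of 8 gene lists in each of the 24 libraries by day and depot, 1 point per library. On day 4 the IMF points lie above the BF points for contractile genes and below them for glycolysis genes, where the 3 BF-4d means are 6.04 to 6.41.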

How the data were processed

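Polyadenylated RNA of 24 cell cultures was sequenced as paired reads on an Illumina NovaSeq. Per the study's methods, the authors aligned reads with HISAT2 to Sscrofa11.1 with the Ensembl annotation and deposited FPKM from StringTie (1.3.4d in the submitters' processing notes), 1 value per gene and library, so library size and gene length were already divided out. Strandedness is not given in the sources used here, so reads of overlapping or antisense genes may not be separated, and near-identical gene copies may share reads. FPKM do not carry the depth of a library, and depth was not used here. Of 25462 genes in the table, 4191 were assembled by the authors outside the annotation. No 2 libraries were identical.

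Genes with summed FPKM over 1 were kept (16135) and log2(FPKM + 1) was fitted with limma 3.58.1 in R 4.3.3 (group means of 8 groups, trend and robust eBayes), with Benjamini-Hochberg adjustment over all genes tested, and with a call at adjusted p under 0.01 and a size of at least 1. An exact permutation test of 3 libraries against 3 cannot go below p = 0.1. The scripts were tested on simulated data. The comparison, the gene lists and the named genes were chosen with earlier results of these data known. Named genes were the 3 qRT-PCR genes, 10 genes a direction with the largest differences (called in both fits, at least 10 FPKM, no overlap), the largest called members of each list, up to 4 a direction, members heading a role, and a few markers, and a few of these are not reported here. BGN, CCL2, CEBPB, CSPG4, DCN, IL11RA, IL1A, IL6, IL6ST, LEP, MX1, MYF5, MYOD1, PLIN2, PTPRC and TIMP1 were chosen after their values were seen. Lists held 869 symbols, 782 in the table and 690 tested. Symbols and coordinates came from the reference tables given. Alternatives were other libraries in the fit, pseudocount 0.1, other filters, median ratio and quantile scaling, library weights, a replicate block and leaving out each library.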

Additional observations from a re-analysis of the deposited data

Results flagged for a closer look

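The depot effect differed between days, by the interaction term of the limma fit, for 1439 genes from day 0 to day 4, for 1031 from day 4 to day 8 and for 493 from day 2 to day 4, the last falling to 33 with only the 12 libraries of those days fitted and to 1 with a replicate block as well. Groups of 3 libraries were too small for a test of single outlying libraries. The 20 leading genes were chosen for their day 4 difference, which is part of the change since day 0, so their changes are given as a description, on the log2(FPKM + 1) scale of IMF minus BF.

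The cytokines and growth factors IL11, LIF, CXCL8 and CXCL14 changed by -8.27, -7.83, -6.98 and -5.73. The EGF family ligands AREG and EREG changed by -8.17 and -7.45, PTGS2 by -7.77, the collagenase MMP1 by -7.56, STC1 by -7.3 and PCK1 by -6.79.

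Towards IMF, the contractile genes ACTA2, ACTG2, TAGLN and MYLK changed by 6.0, 4.35, 4.26 and 4.15. The matrix genes MGP, ECM2 and COL11A1 changed by 5.57, 5.22 and 4.26, and the WNT inhibitor SFRP4 by 4.41. The smallest changes of the 20 were those of THBS4 (1.79) and IGFBP6 (2.02), which were already higher in IMF on day 0 (4.08 and 2.69). BF-4d replicate 3 stood apart from the other day 4 libraries, and its part in these changes was not tested beyond leaving it out: the count from day 0 to day 4 was then 1396, 1208 of them shared.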

How the results depend on the processing

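The day 4 count of 1826 became 3194 with pseudocount 0.1 and stayed within 1.5 times under the other alternatives, and no called gene changed sign. The share of calls higher in IMF-4d was 61.7% with only the 6 day 4 libraries fitted, 48.2% with median ratio scaling, 50.5% with quantile normalization and 63.1% with the replicate block and only those 6. Leaving out 1 library gave 1686 to 1989 calls and a share of 57.4 to 59.5%. For changes of the depot difference, leaving out 1 library gave 1238 to 1559 (day 0 to 4), 270 to 879 (day 2 to 4) and 808 to 1207 (day 4 to 8). For day 2 to 4 the count was 879 without BF-2d replicate 1, 317 without IMF-2d replicate 2, 301 without IMF-4d replicate 1 and 270 without IMF-4d replicate 2. It was 33 with only the 12 libraries of those days fitted and 1 with the replicate block as well, while the count for day 4 to 8 was 1704 with library weights. The cause was not tested.

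The replicate numbers of the labels are not said to mark shared piglets, and the deviations of same-numbered BF-4d and IMF-4d libraries correlated at 0.0392, -0.0782 and 0.0209 (not every library correlated best with its own number), so the numbers were not taken as pairs. The replicate block gave 1830, 1414, 446 and 1009 calls with all 24 libraries (day 4, and the changes from day 0, from day 2 and to day 8), and 1281, 1480, 1 and 814 with only the 6 or 12 libraries concerned.

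Of the 355 genes that were named or were called members of a list, 46 lost their call with only the 6 day 4 libraries fitted and 80 with the replicate block as well, 20 and 19 with median ratio and quantile scaling, and 19 to 33 when a library was left out. The stricter filter tested 11295 genes and the fit without a filter 21696 (1839 and 1786 called).

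Without counts, the sampling error of low genes cannot be given. With 3 libraries a depot, and 1 subcutaneous library apart, the spread in BF-4d was estimated poorly.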

Other observations

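Several of the genes that differed most on day 4 were in none of the gene lists. They are the 4 largest in each direction among called genes with a symbol, at least 10 FPKM in some library and no place in a list, a selection made after their values were seen. Lower in IMF-4d was LVRN, an aminopeptidase of the cell surface, which read 33.2, 103 and 85.7 FPKM in BF-4d and 0.414, 0.212 and 0.279 FPKM in IMF-4d, a difference of -5.70 (SE 0.48, adjusted p = 2.54e-08). SIK1, a kinase of the family that phosphorylates CRTC coactivators and that cAMP signals induce, read 73.7, 67.1 and 72.3 FPKM in BF-4d and 0.655, 0.725 and 0.919 FPKM in IMF-4d, a difference of -5.35 (SE 0.54, adjusted p = 2.80e-07). Its 3 BF-4d libraries lay close together, replicate 3 included. MMD read 92.2, 139 and 119 FPKM in BF-4d and 2.19, 1.41 and 2.73 FPKM in IMF-4d (-5.24, SE 0.55, adjusted p = 4.07e-07) and IER3, an immediate early gene, read 231, 371 and 1041 FPKM in BF-4d and 14.4, 16 and 13.9 FPKM in IMF-4d (-4.83, SE 0.42, adjusted p = 2.99e-08), highest in BF-4d replicate 3.

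Higher in IMF-4d was NCAM1, the neural cell adhesion molecule that is also made by muscle precursors and some mesenchymal cells, at 1.29, 1.39 and 0.922 FPKM in BF-4d and 38.6, 41 and 47.2 FPKM in IMF-4d, a difference of 4.30 (SE 0.24, adjusted p = 8.89e-11). The marker genes of muscle precursors were low, as described above. ISG12(A), an interferon-induced gene, read 6.12, 2.47 and 21.1 FPKM in BF-4d and 163, 156 and 149 FPKM in IMF-4d (4.26, SE 0.72, adjusted p = 9.01e-05). As for IFIT1 and RSAD2, BF-4d replicate 3 was the highest library of its depot. HSPB6, a small heat shock protein abundant in smooth muscle, read 7.83, 4.43 and 2.62 FPKM in BF-4d and 98.8, 106 and 94.6 FPKM in IMF-4d (4.17, SE 0.31, adjusted p = 3.71e-09), and OLFML2B, a secreted olfactomedin protein, read 0.329, 0.342 and 1.10 FPKM in BF-4d and 26, 28 and 24.2 FPKM in IMF-4d (4.12, SE 0.50, adjusted p = 2.55e-06). In none of these 8 genes did the libraries of the depots overlap, as in 1825 of all 1826 called genes.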
